A study of Mus musculus with 23 samples.

Results

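The cells described here were gated as baseline hematopoietic stem cells from their surface antibody reads. They carried high CD150 and high CD201 and low CD48. Barcodes of the baseline libraries were kept when they held at least 1000 UMIs (unique molecular identifiers, the count of captured transcripts), 500 or more detected genes and no more than 10% of UMIs from mitochondrial genes. Antibody percentiles were taken over the pooled Control cells. A kept cell of any library was a member when its raw CD150 count exceeded the 75th percentile (38 UMIs), its CD201 count exceeded the 75th percentile (90 UMIs) and its CD48 count lay under the 25th percentile (244 UMIs). In all, 2994 of 50460 kept cells (5.93%) passed, from 53070 deposited barcodes. The members were chosen by their CD150, CD201 and CD48 antibody reads, so those 3 readouts and the transcripts of the same 3 proteins (Slamf1, Procr and Cd48) are given as descriptions with no test.

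The study asked how loss of Ezh2, the catalytic subunit of Polycomb repressive complex 2 (PRC2), compares with loss of Jarid2, a PRC2 cofactor, in blood stem and progenitor cells. The baseline experiment was CITE-seq, a droplet method that counts RNA and antibody barcodes in the same cell. The input was bone marrow of 2-month-old mice that had not been transplanted, enriched for c-Kit and sorted as c-Kit+ Sca1+ Lineage- (KSL) cells. The descriptions list no drug treatment for these mice, and whether an inducer of Cre was given is unknown here. Every genotype (Control, Ezh2 KO, Jarid2 KO) had 1 male and 1 female library, 6 in all, and the labels give Mx1-Cre for all 3 genotypes. The knockouts started from Ezh2 fl/fl or Jarid2 fl/fl alleles, named Ezh2Δ/Δ and Jarid2Δ/Δ after deletion. Mx1-Cre is driven by an interferon-inducible promoter that acts in many cell types of the marrow and outside it. How Cre was induced, which alleles the Control mice carried and whether a library held 1 mouse or a pool are absent from the descriptions used here. The p-values therefore measure the spread between these libraries.

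Long-term stem cells sit at the top of the blood hierarchy and divide rarely. CD150 (SLAMF1) and CD201 (the endothelial protein C receptor, PROCR) are high on mouse long-term stem cells, while CD48 is gained as they turn into multipotent progenitors. The transcription factors HLF and MECOM (EVI1) are known for keeping stem cells self-renewing. PRC2 places the repressive mark H3K27me3 through EZH2 or its paralog EZH1, with EED and SUZ12 as scaffold subunits.

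Libraries held 7162 to 10041 kept cells, and the members' summed UMIs ran from 2926839 to 7800082 per library. Summed counts are given below as CPM (UMI counts scaled to the same total in every library), male library before female within each genotype. Cells marked as doublets made up 0.204% to 2.28% of members and 6.57% to 8.71% of the other cells, by a doublet score whose automatic threshold failed and was replaced by an expected rate. Only 1 member barcode recurred among the members of another library. Members were smaller cells by RNA content. Their median was 9036 and 8434 UMIs in Control, 10062.5 and 8343 for Ezh2 KO and 9628 and 10104 for Jarid2 KO. The mean of these medians was 9268 ± 783 (SD, n = 6) against 11795 ± 780 in the other cells, lower in 6 of 6 libraries (exact sign-flip permutation test, two-sided, p = 0.03125, the smallest 6 pairs allow). The median mitochondrial share was 3.65% in members and 3.27% in other cells.

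The gate held 6.86% and 5.06% of kept cells in Control, 2.97% and 5.31% for Ezh2 KO and 9.60% and 6.81% for Jarid2 KO. The exact (Clopper-Pearson) 95% interval was widest for the Jarid2 KO male, 8.95% to 10.3%, and such intervals cover counting error only. The Ezh2 KO male was the lowest library and the Jarid2 KO male the highest, and the Control and Jarid2 KO values overlapped, as did the Control and Ezh2 KO values. Ezh2 KO averaged 4.14% ± 1.65 (SD, n = 2) against 5.96% ± 1.27 in Control. Jarid2 KO averaged 8.20% ± 1.97. Within sex, the Jarid2 KO library was above its Control in 2 of 2 pairs and above its Ezh2 KO library in 2 of 2, while Ezh2 KO was below Control for the males and above it for the females. The gap between Jarid2 KO and Ezh2 KO was 4.06 percentage points. The share comes from the antibody reads that set the gate, and 2 libraries a group cannot give an exact permutation p under 0.3333. It is therefore described with no test, and no difference between genotypes is claimed. Whether the groups overlapped depended on the gate. With antibody counts scaled to each cell's antibody total the gate held 9.06% and 7.81% in Control, 4.09% and 7.77% for Ezh2 KO and 12.7% and 9.36% for Jarid2 KO. The 3 groups did not overlap, but the Control and Ezh2 KO females had overlapping 95% intervals (7.25% to 8.40% and 7.25% to 8.31%). Without the CD201 condition it held 11.92% and 11.96%, 5.83% and 8.76%, and 14.2% and 12.8%, again without overlap. With the 90th and 10th percentiles Control (2.32% and 1.06%) overlapped Jarid2 KO (2.61% and 1.69%) and lay above Ezh2 KO (0.780% and 1.04%). With marked doublets removed Control (7.29% and 5.44%) overlapped Ezh2 KO (3.22% and 5.73%) and Jarid2 KO (10.0% and 7.18%). With cells of at least 2000 UMIs and at most 5% mitochondrial UMIs, Control held 6.63% and 5.17%. It then overlapped Ezh2 KO (3.06% and 5.49%) but not Jarid2 KO (9.72% and 6.82%).

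The CD48 arm of the gate moved most between genotypes. Cells under the CD48 threshold made up 25.1% and 24.7% of Control cells, 11.1% and 15.9% of Ezh2 KO cells, and 34.2% and 36.0% of Jarid2 KO cells. These groups did not overlap. CD150 passed in 20.8% and 28.4% of Control cells, 19.3% and 29.4% of Ezh2 KO cells and 21.5% and 22.9% of Jarid2 KO cells, which overlapped. CD201 passed in 29.0% and 21.5%, 17.5% and 26.6%, and 35.8% and 24.4%, and also overlapped. The median CD48 antibody count of the cells outside the gate was 987 and 709 UMIs in Control, 1592 and 1266.5 for Ezh2 KO and 672 and 500 for Jarid2 KO. With percentiles taken within each library, which sets every arm to the same share in each library, the gate held 6.93% and 5.21%, 6.02% and 6.29%, and 6.95% and 5.76%, and the Ezh2 KO minus Control difference changed sign from -1.82 to 0.0893 percentage points. Whether the CD48 shift reflects the cells' protein, their makeup or the staining was not tested.

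**Figure D1:**
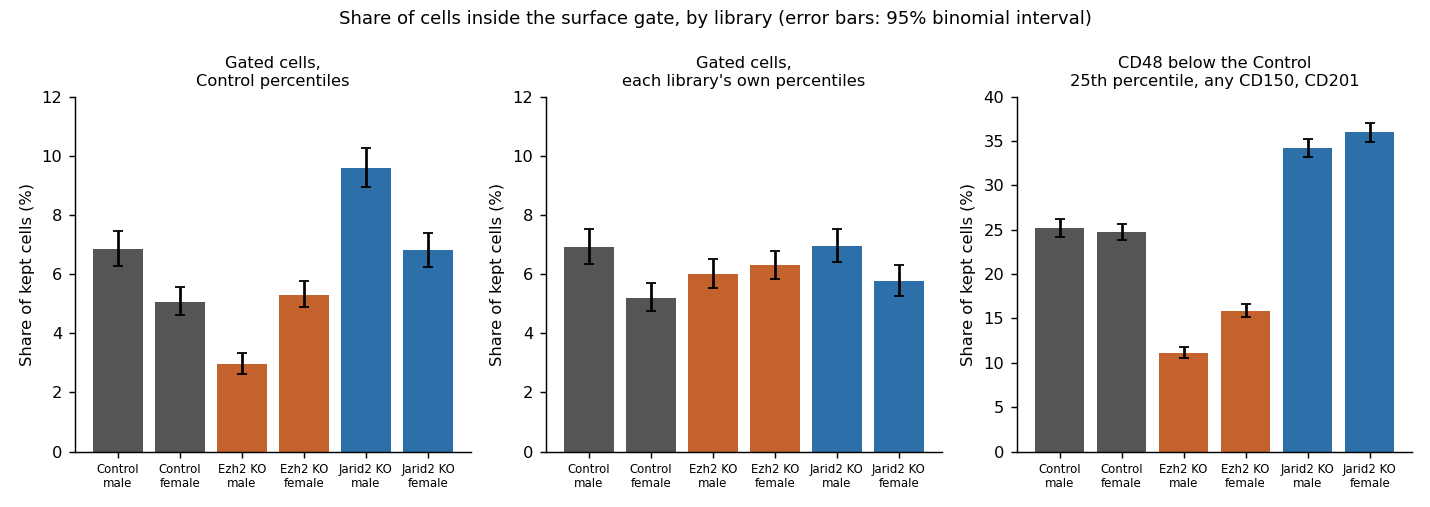
Share of kept cells inside the gate in each of the 6 libraries (y axes, percent; error bars, exact 95% binomial intervals) with Control percentiles (left), with each library's own percentiles (middle), and the share under the Control CD48 threshold alone (right). The left panel spans 2.97% to 9.60%, the middle panel 5.21% to 6.95%, and in the right panel both Ezh2 KO libraries sit under and both Jarid2 KO libraries above the Control pair.

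Members had median CD150 counts of 208 and 182 in Control, 174 and 159 for Ezh2 KO and 139 and 156 for Jarid2 KO, against 11 to 21 in the other cells. CD201 medians were 148.5 to 190 against 41 to 64, and CD48 medians were 95 to 150. The Slamf1 transcript was low in the 408 members just inside the CD150 threshold (within 5 percentile points), at 3.57 CPM, and in the 332 cells just outside it, at 2.46 CPM, while all members together held 28.7 CPM. Hlf was 1020 CPM and Mecom 1161 CPM in that inner band, and 1117 and 1175 CPM in the outer band. Procr was 43.2 CPM in 366 cells just inside the CD201 threshold and 43.7 CPM in 301 cells just outside. At the CD48 threshold, Procr was 63.3 CPM in 349 cells inside and 43.1 CPM in 303 cells outside. These bands pool cells of all libraries, so no spread is given.

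Antibodies that the gate did not use also set the members apart. CD135 (FLT3, a receptor gained by lymphoid-primed progenitors) had a median of 14 UMIs in each Control and Ezh2 KO library and 17 in each Jarid2 KO library, against 28 to 51 in the other cells. The mean of these medians was 15.0 ± 1.55 (SD, n = 6) in members and 42.3 ± 8.98 outside. The tag that reads biotinylated anti-Sca1 had medians of 719 to 777 in members and 361 to 433 outside, a mean difference of 365. CD117 (KIT, the stem cell factor receptor) had medians of 261 and 260 in Control, 244.5 and 247 for Ezh2 KO and 322 and 346 for Jarid2 KO, each above the 180 to 284 of its own library's other cells by a mean of 48.9. All 3 antibodies differed in the same direction in 6 of 6 libraries (exact sign-flip permutation test, two-sided, p = 0.03125 each, adjusted p = 0.03125 over 3). Between genotypes, members' CD117 did not overlap, being 73.5 UMIs higher in Jarid2 KO and shifted by -14.75 in Ezh2 KO relative to Control (exact permutation p = 0.3333 each, adjusted p = 0.6 over 9 comparisons).

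The targeted genes were read over their whole 3′ end, and which exons were deleted is unknown here, so these counts do not check the deletion. Ezh2 (RefSeq GRCm38.p6, chromosome 6, 47530274 to 47595270) was 71.1 and 67.9 CPM in Control members, 51.6 and 56.2 for Ezh2 KO and 81.3 and 87.3 for Jarid2 KO. The Ezh2 KO pair was the lowest and did not overlap Control, and the difference did not pass the test (log2 -0.33, edgeR FDR 0.24). Jarid2 (chromosome 13, 44730774 to 44921643) was 166 and 176 CPM in Control, 143 and 169 for Ezh2 KO and 195 and 187 for Jarid2 KO. Jarid2 transcripts were thus not lower in the libraries labelled Jarid2 KO (log2 0.18, edgeR FDR 0.34). Among the other KSL cells Jarid2 was 217 and 204 CPM in Jarid2 KO and 158 and 148 in Control.

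The 4 stem cell marker transcripts had a higher CPM in the members than in the other cells of every library. Procr (chromosome 2, 155751125 to 155755478) was 89.2 and 72.4 CPM in Control members, 87.8 and 79.6 for Ezh2 KO and 79.4 and 65.4 for Jarid2 KO, against 14.0 to 27.7 in other cells. Slamf1 (chromosome 1, 171767131 to 171801184) was 26.2 and 34.6, 30.1 and 29.2, and 26.4 and 28.6 CPM, against 2.20 to 5.35. These levels lay above every value of the other cells, with log2 fold changes of 1.98 and 2.85. Hlf (chromosome 11, 90336535 to 90390917) ranged from 805 CPM (Jarid2 KO male) to 924 CPM (Control female) in members. The other cells held 406 to 620 CPM of Hlf, and no library overlapped (log2 0.72 ± 0.07 SE, edgeR FDR 2.05e-06). Mecom (chromosome 3, 29951296 to 30509759) was 1248 and 1440, 1275 and 1225, and 1191 and 1293 CPM in members against 447 to 641 outside (log2 1.13 ± 0.06 SE, edgeR FDR 2.55e-09). Hlf had the smallest log2 difference of the 4 markers. Hlf and Mecom, whose proteins the gate did not read, thus stood on the side the label names, while the side of Procr and Slamf1 follows from the gate.

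**Figure D2:**
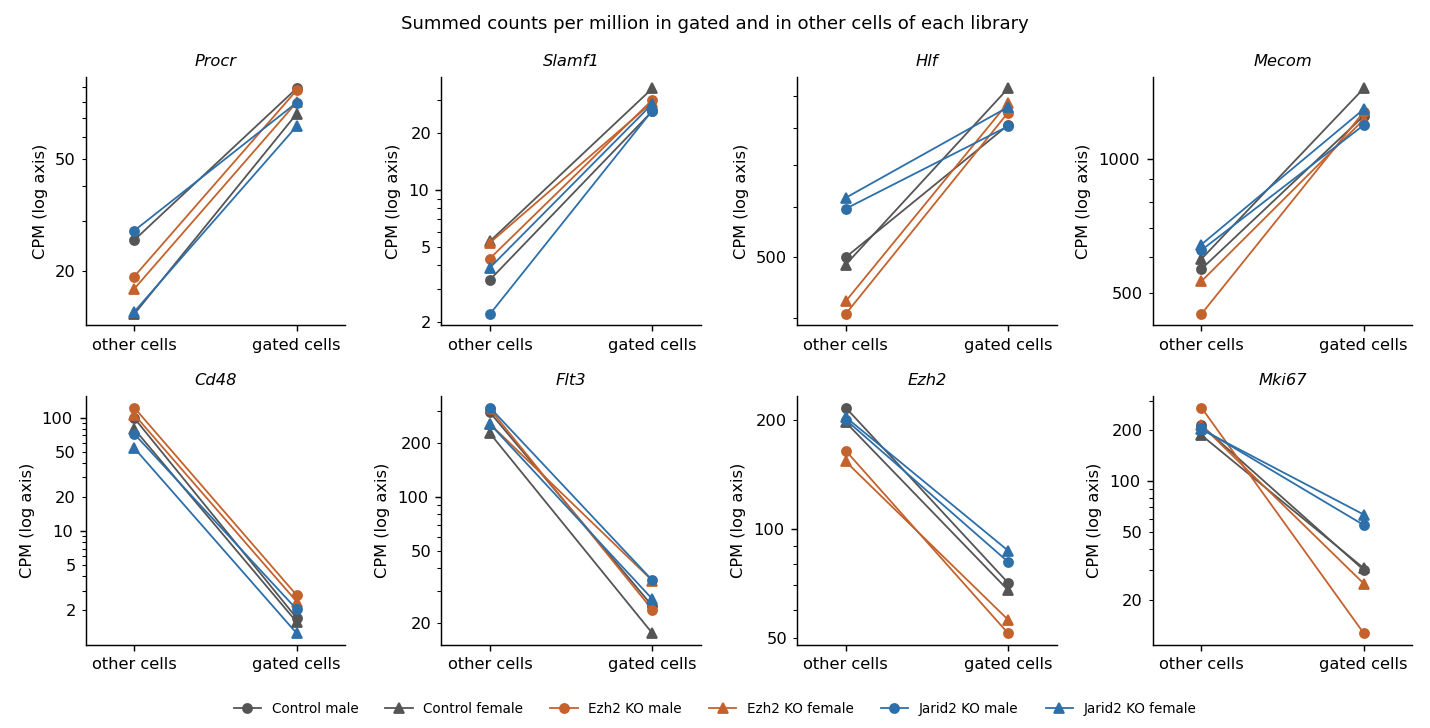
Summed CPM (y axes, log scale) in the other KSL cells and in the gated cells of each library, 6 lines per gene (circles male, triangles female). All 6 lines rise for Procr, Slamf1, Hlf and Mecom and fall for Cd48, Flt3, Ezh2 and Mki67.

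Across 16353 genes tested with library as a block, 4617 were higher in members (28.2%) and 5078 lower (31.1%) at an edgeR FDR under 0.05, with a median log2 difference of -0.01. Counts of members of a list are to be read against those shares. Of 32 transcripts known to mark long-term stem cells, leaving out Procr and Slamf1, 31 were higher and 1, Hoxa9, was lower, with a median of 1.53 (log2). Fgd5, a stem cell-restricted guanine exchange factor, averaged 53.9 ± 5.63 CPM (SD, n = 6) in members and 10.4 ± 2.28 outside (log2 2.32). Hoxb5 averaged 14.2 and 2.20 CPM (log2 2.62), and Mllt3, a chromatin reader that maintains human stem cells, 589 ± 30.2 and 172 ± 18.2 CPM (log2 1.73). Hoxa9, a homeobox factor shared with multipotent progenitors, was 119 CPM in members and 125 outside (log2 -0.12, edgeR FDR 0.0486).

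The largest positive differences lay in genes that other KSL cells barely expressed. Cyp26b1, which degrades retinoic acid, was 35.9 and 30.1 CPM in Control members, 20.8 and 32.7 for Ezh2 KO and 18.1 and 23.2 for Jarid2 KO, against 0.357 to 0.741 outside (log2 5.39, edgeR FDR 5.02e-12). Each library's members stood far above all other cells. The retinoic acid receptor Rarb rose along with it, at 57.9 ± 9.53 CPM (SD, n = 6) against 4.02 ± 0.885 (log2 3.80). The transcriptional coactivator Eya4 rose from 1.03 to 31.7 CPM (log2 4.89), the adhesion gene Ncam2 from 3.28 to 82.4 (4.59), the muscarinic receptor Chrm3 from 4.31 to 88.7 (4.28) and the corepressor Runx1t1 from 2.34 to 41.4 (4.09). Pdgfc, Sult1a1, Meg3, Mmp16, Wwtr1 and Shisa9 completed the 12 highest named genes, with log2 differences of 4.53, 4.38, 3.88, 3.80, 3.80 and 4.48. The lowest named genes belonged to committed lineages. Among them were the interleukin-7 receptor Il7r (log2 -6.51), the terminal transferase Dntt (-6.42), the B-cell factors Pax5 (-6.20) and Ebf1 (-5.88), and the neutrophil granule proteases Ctsg (-6.10) and Elane (-5.68). Myeloperoxidase Mpo, outside the 12 lowest, was at -5.58. Dntt was 0.9 to 9.22 CPM in members and 121 to 441 outside. Cd48 itself was 1.96 ± 0.545 CPM in members and 89.1 ± 25.2 in the other cells.

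Most genes of the B-cell, lymphoid, myeloid and erythroid lists were lower in members. All 20 B-cell genes were lower (median log2 -5.24), as were 23 of 24 lymphoid-priming genes (-3.35), 19 of 24 myeloid granule genes (-2.71) and 12 of 21 erythroid genes (-1.18). Lysozyme Lyz2 was the 1 myeloid gene that was higher, at 177 ± 14.8 CPM against 119 ± 10.9 (log2 0.52), and the erythroid list had Car2 and Tfr2 higher. In the megakaryocyte list, 14 of 24 were higher and 3 lower, with a median of 0.85. Vwf, the platelet adhesion factor also made by platelet-biased stem cells, was 37.4 and 50.7 CPM in Control members, 31.8 and 41.0 for Ezh2 KO and 28.3 and 37.5 for Jarid2 KO, against 3.15 to 10.4 outside (log2 2.73, edgeR FDR 1.34e-09). Pf4, a platelet granule chemokine, and the megakaryocyte factor Gata1 were lower (log2 -0.94 and -2.26), while Itga2b (CD41) did not pass the test (-0.19, edgeR FDR 0.171). In the T and innate lymphoid list Gata3, Zbtb16 and Rora were higher and the other 12 lower. Rora, a nuclear receptor, averaged 366 against 68.6 CPM.

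Summed markers of other cell types were lower in the gate for some types and overlapped for others. Summed B-cell markers were 5.51 to 34.4 CPM in members and 209 to 2010 CPM outside. Lymphoid marker sums were 34.9 to 55.5 against 542 to 1060 CPM, erythroid sums 5.37 to 66.3 against 61.7 to 358, and basophil and mast cell sums 0.860 to 2.73 against 14.5 to 28.0. Endothelial and stromal sums were 38.7 to 64.7 against 81.5 to 109 CPM, and Pecam1 gave most of both (means of 47.3 and 92.9 CPM). Cxcl12 averaged 4.01 against 1.71 CPM and did not pass (edgeR FDR 0.735), with 21.1 CPM in the Ezh2 KO female members. Col1a1 (0.255 against 0.122) and Cdh5 (0.0569 against 0.0457) were barely detected, so these sums mainly reflect Pecam1. Myeloid sums were 315 to 417 CPM in members and 433 to 791 outside. The granule protease Prtn3 alone gave 311 to 408 CPM of the members' sum (log2 0.11 against other cells, edgeR FDR 0.239), while Mpo, Elane and Ctsg averaged 2.41, 1.16 and 1.27 CPM in members against 109, 48.4 and 83.5 outside. T and innate lymphoid sums overlapped (32.7 to 44.1 against 24.7 to 62.9). Gata3 gave most of the members' sum (25.6 to 36.2 CPM). Il1rl1 (0.396 against 6.65 CPM) and Skap1 (6.32 against 16.0) were lower in members, and Cd3e was at 0 there. Dendritic sums (127 to 265 against 178 to 276) and megakaryocyte sums (47.7 to 94.6 against 70.3 to 191) overlapped too. In members the dendritic sum came mostly from Cd74 and H2-Aa (means of 94.8 and 98.5 CPM). Irf8 was 4.81 against 37.6 CPM and Siglech 0 against 0.511. The erythroid ranges overlapped, and the 2 highest sums in members, 66.3 and 61.2 CPM, were in the Control and Jarid2 KO females.

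Growth and homeobox genes formed a further block. Of 21 imprinted growth genes tested, 18 were higher in members and none lower (median log2 2.12). Cdkn1c (p57), an imprinted inhibitor of cell cycle entry, was 71.1 and 56.0 CPM in Control, 82.7 and 53.8 for Ezh2 KO and 65.5 and 64.5 for Jarid2 KO, against 7.91 to 13.8 outside (log2 2.496, edgeR FDR 1.46e-11). Meg3, a maternally expressed long noncoding RNA, was 76.9 ± 17.0 CPM (SD, n = 6) in members and 5.48 ± 3.66 outside, and Ndn was 24.5 against 4.28 CPM. H19 and Igf2 also passed and stayed low in absolute terms, at 1.00 and 1.48 CPM. Of 16 HoxA and HoxB genes, 13 were higher and 1 lower (median 1.05). Of 9 genes of the fetal stem cell program, 6 were higher (median 1.67), including Igf2bp2 (28.6 ± 4.10 against 3.22 ± 0.146 CPM) and Mycn (107 ± 16.0 against 33.2 ± 9.88 CPM). Hmga2 did not pass (60.6 against 70.2 CPM, log2 -0.16, edgeR FDR 0.347).

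Signal-response and contact genes divided. Of 23 immediate early genes 15 were higher and 2 lower (median 0.49), with Egr1 at 96.7 ± 29.5 against 39.0 ± 11.3 CPM. Fos (log2 0.13) and Jun (0.08) did not pass (edgeR FDR 0.115 and 0.0946). Of 28 interferon-stimulated genes 15 were higher and 3 lower (median 0.41), Ifitm3 among the higher (log2 1.01). Of 25 niche and adhesion genes other than Procr, 14 were higher, including the angiopoietin receptor Tek (29.6 against 8.46 CPM) and the junction protein Esam (59.0 against 15.5), and 8 were lower. Cd34 fell from 254 ± 26.2 to 64.5 ± 10.1 CPM and the chemokine receptor Cxcr4 from 30.5 to 17.8. Mouse long-term stem cells are known to carry little CD34. Of 7 MHC class II genes 2 were higher and 2 lower (median -0.14), near the shares of all genes (28.2% and 31.1%). Flt3 and Kit transcripts followed their antibodies, with Flt3 at 26.9 against 276 CPM and Kit at 354 ± 15.2 against 266 ± 18.9 CPM.

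**Figure D3:**
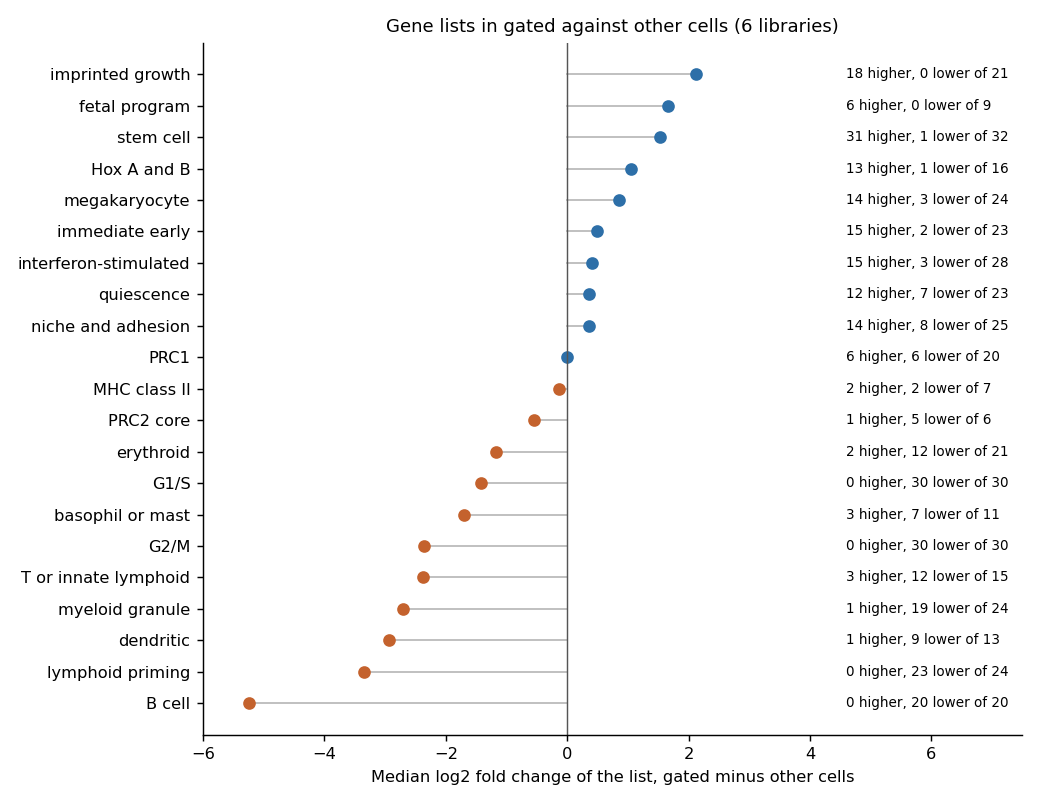
Median log2 fold change (x axis) of the tested genes of each list, gated minus other KSL cells, without Procr and Slamf1, with the counts of genes higher and lower at an edgeR FDR under 0.05 at right. Of the lists drawn, imprinted growth, fetal program and stem cell have the highest medians (2.12, 1.67 and 1.53) and the B-cell list the lowest (-5.24). The developmental Polycomb target list is not drawn and had a median of 1.88 over 6 tested genes.

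Cell cycle transcripts were depleted in members of every library. All 30 G1/S genes (DNA replication) and all 30 G2/M genes (mitosis) were lower, with medians of -1.41 and -2.35 (log2). Mki67, the proliferation antigen, was 29.9 and 30.6 CPM in Control members, 12.6 and 24.8 for Ezh2 KO and 55.1 and 63.6 for Jarid2 KO, against 187 to 273 outside (log2 -2.59, edgeR FDR 3.38e-07). Members held less than any group of other cells. After each cell was thinned to 5000 UMIs, cells with at least 3 G2/M UMIs made up 7.29% and 7.75% of Control members, 6.67% and 11.1% of Ezh2 KO members and 11.2% and 10.9% of Jarid2 KO members. The other cells gave 34.5% to 46.9%. The mean difference was -30.2 percentage points (9.16 ± 2.14 against 39.4 ± 4.72, SD, n = 6), lower in 6 of 6 libraries (exact sign-flip permutation test, two-sided, p = 0.03125). Thinning left out 11 to 39 members and 335 to 692 other cells per library that had fewer UMIs. Without thinning the shares were 18.5% to 33.3% and 55.7% to 67.8%. For G1/S UMIs the share was 57.4% ± 4.42 in members and 76.8% ± 1.34 outside.

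Regulators of cycle entry differed too. Cdk6, which sets the speed of exit from quiescence, was 179 ± 26.9 CPM in members and 645 ± 86.7 outside (log2 -1.90, edgeR FDR 6.15e-10). Of 23 quiescence genes, 12 were higher and 7 lower (median 0.36). Cdkn1c, Txnip (810 ± 137 against 304 ± 66.6 CPM) and Ndn were among the higher, and the inhibitors Cdkn1a (log2 -1.66), Cdkn1b (-0.22) and Cdkn2c (-1.47) among the lower, together with Foxo3 (-0.21). The quiescence list thus held genes of both directions, where 28.2% of all genes were higher and 31.1% lower.

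The genes of PRC2 itself differed between members and other cells. Ezh2 was lower in members of every library (69.2 ± 13.8 against 190 ± 24.6 CPM, SD, n = 6, log2 -1.50, edgeR FDR 3.36e-10), and its paralog Ezh1 was higher (45.2 ± 4.68 against 27.3 ± 2.54 CPM, log2 0.67). Ezh1 was the 1 higher gene of 6 core PRC2 genes, and the other 5, with Eed (-0.50) and Suz12 (-0.58), were lower. Of 9 accessory genes, Phf1 was higher (log2 0.93) and 5 were lower. For Jarid2 the difference did not pass the test (173 ± 18.3 against 167 ± 35.1 CPM, log2 0.01 ± 0.05 SE, edgeR FDR 0.86). PRC1 genes were balanced at 6 higher and 6 lower of 20 (median 0.00). Of 88 developmental Polycomb target genes 6 were abundant enough to be tested here. Among these 6, 4 were higher in members and 1 lower (median 1.88).

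The members were also compared with other gates set from the same Control percentiles. The first held 2538 cells with high CD150 and CD48 above the 75th percentile (1582 UMIs). Their median depth was 18656.5 to 22486 UMIs, far above the members'. Of 12499 genes tested, 33.7% were higher in members and 33.9% lower (edgeR FDR under 0.05). All 32 stem cell genes other than Procr and Slamf1 were higher (median 1.70) and all 60 cell cycle genes lower (medians -1.70 for G1/S and -2.97 for G2/M). Ctsg, Elane and Mpo were among the lowest named genes (log2 -7.49, -7.35 and -6.82), with Ctsg at 0.54 to 2.11 CPM in members and 86.8 to 312 in the CD48-high cells. Procr was 65.4 to 89.2 CPM in members and 6.29 to 12.9 there. The megakaryocyte list split into 11 higher and 8 lower of 21. Vwf and Selp were among those higher in members, and Pf4, Itga2b, Gp1bb and Gp5 among those lower, with Pf4 at 42.4 ± 12.9 against 266 ± 165 CPM.

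The second comparator held 4041 cells with CD135 above the 75th percentile (73 UMIs) and CD150 under the 25th (10 UMIs), the surface pattern of lymphoid-primed progenitors. Of 12339 genes, 32.3% were higher in members and 30% lower. Dntt was 0.9 to 9.22 CPM in members and 409 to 1007 CPM in these cells (log2 -7.94, edgeR FDR 1.6e-12), and 22 of 23 lymphoid-priming genes were lower (median -3.61). The same 32 stem cell genes gave 31 higher and 1 lower (median 2.35), and the megakaryocyte list 16 higher and 2 lower of 19 (median 3.21), with Vwf at 37.8 ± 7.79 against 0.783 ± 0.360 CPM. Imprinted growth genes had their highest median here (3.51, with 12 of 13 higher). Slamf1 was 0.234 to 0.622 CPM in these cells. The fetal list divided, since 5 of 8 genes were higher and Hmga2 and Hmga1 were lower in members. Hmga2 was 155 CPM in each Ezh2 KO comparator library and 44.3 in each Control comparator library, so that difference varied with genotype.

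The third comparator held 2370 cells that met the CD150 and CD48 conditions without high CD201. Of 12223 genes, 21% were higher in members and 21.6% lower. Stem cell genes still favoured the members (26 higher and 0 lower of 32, median 0.46), as did all 11 Hox genes tested (0.64). Meg3 was 54.6 to 102 CPM in members and 5.89 to 23.0 in these cells (log2 2.39, edgeR FDR 3.3e-20). Pdgfc, a platelet-derived growth factor, was 21.4 ± 5.72 against 1.65 ± 1.37 CPM (log2 3.80), and Cyp26b1 26.8 against 3.64 (2.84). Slamf1 levels were nearer, at 29.2 ± 3.06 against 22.2 ± 4.57 CPM. Cell cycle genes remained lower (29 of 30 G1/S and 30 of 30 G2/M). The megakaryocyte list reversed against this comparator, with 4 higher (Vwf, Selp and Mmrn1 among them) and 14 lower of 21 (median -0.40), and Pf4 was 24.6 to 62.2 CPM in members and 87.1 to 255 without high CD201 (log2 -1.96). Interferon-stimulated (21 higher and 0 lower of 25) and immediate early genes (18 and 0 of 19) were higher in members. Among cells that met the CD150 and CD48 conditions, those with high CD201 thus held less Pf4 and less of the cycle genes.

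Members were not uniform. Within each library they were divided at the median of an antibody, and the upper and lower members were compared with library as a block. For CD150, which the rule used for entry but not for order above the threshold, 6.59% of 11085 genes were higher in the upper members and 5.84% lower. Vwf was 47.1 to 82.8 CPM in the upper and 6.40 to 13.7 in the lower members (log2 2.63, edgeR FDR 2.6e-21). Clu, the chaperone clusterin, was 18.9 ± 4.28 against 1.33 ± 0.405 CPM (log2 3.75), and the tight junction gene Cldn5 30.8 against 2.57 (3.68). Of 18 megakaryocyte genes 13 were higher and 1 lower (median 0.35), while 10 of 16 lymphoid-priming genes were lower and 2 higher (-0.43). Flt3 was 12.1 ± 4.33 in the upper and 44.0 ± 9.36 CPM in the lower members (log2 -1.84). Of 7 MHC class II genes, 5 were lower. Hlf was lower in the upper members (751 ± 50.3 against 972 ± 45.3 CPM, log2 -0.37), and Mecom differed by 0.08. Of the 32 stem cell genes other than Procr and Slamf1, 20 were higher in the upper members and 4 lower (median 0.24). The G2/M list was near balance, with 3 higher and 1 lower of 27. Upper members had medians of 8860 to 10858 UMIs against 7696 to 9583.

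For CD201, 7.9% of 11103 genes were higher in the upper members and 7.76% lower. Of the named genes Cldn5 had the largest log2 difference (3.96). Pdgfc came next, at 26.5 to 53.6 CPM in the upper and 2.03 to 6.36 in the lower members (log2 3.22, edgeR FDR 3.6e-25). Ndnf (2.85) and the growth factor Igf1 (2.78, 27.6 ± 6.91 against 3.96 ± 2.46 CPM) followed. Of the 32 stem cell genes other than Procr and Slamf1, 24 were higher, and Angpt1 was lower. All 28 G1/S and all 26 G2/M genes tested were lower (medians -0.59 and -1.41). Mki67 was 10.0 to 38.9 CPM in the upper and 15.0 to 91.7 in the lower members, and the Jarid2 KO lower members were the highest at 91.7 and 84.9 CPM. Depth was slightly lower in the upper members, at 7950.5 to 9790 against 8726 to 10628 UMIs.

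CD117, which the gate did not use, gave the reverse. Here 8.66% of 11082 genes were higher in the upper members and 7.47% lower. All 23 G2/M and 27 G1/S genes tested were higher (medians 2.62 and 1.11). Mki67 was 48.7 and 51.1 CPM in the upper Control members, 20.3 and 41.9 for Ezh2 KO and 90.7 and 102 for Jarid2 KO, against 3.70 to 15.1 in the lower members (log2 2.96, edgeR FDR 1.7e-24). Every upper value lay above every lower value. Of these 32 stem cell genes 0 were higher and 19 lower (median -0.25), and Procr stood at 65.0 ± 11.0 against 95.9 ± 7.11 CPM (log2 -0.59). The guanylate-binding gene Gbp4 (-1.77), Pdgfc (-1.63), Ndnf (-1.62) and Igf1 (-1.62) led the lower genes, and 17 of 18 immediate early genes were lower (median -0.48). Of 22 quiescence genes 14 were lower and Cdkn2c was higher. Upper members had medians of 8798 to 10873 UMIs and lower members 7870 to 9688, so antibody level and RNA content moved together, and the part of cell size in these differences was not tested.

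**Figure D4:**
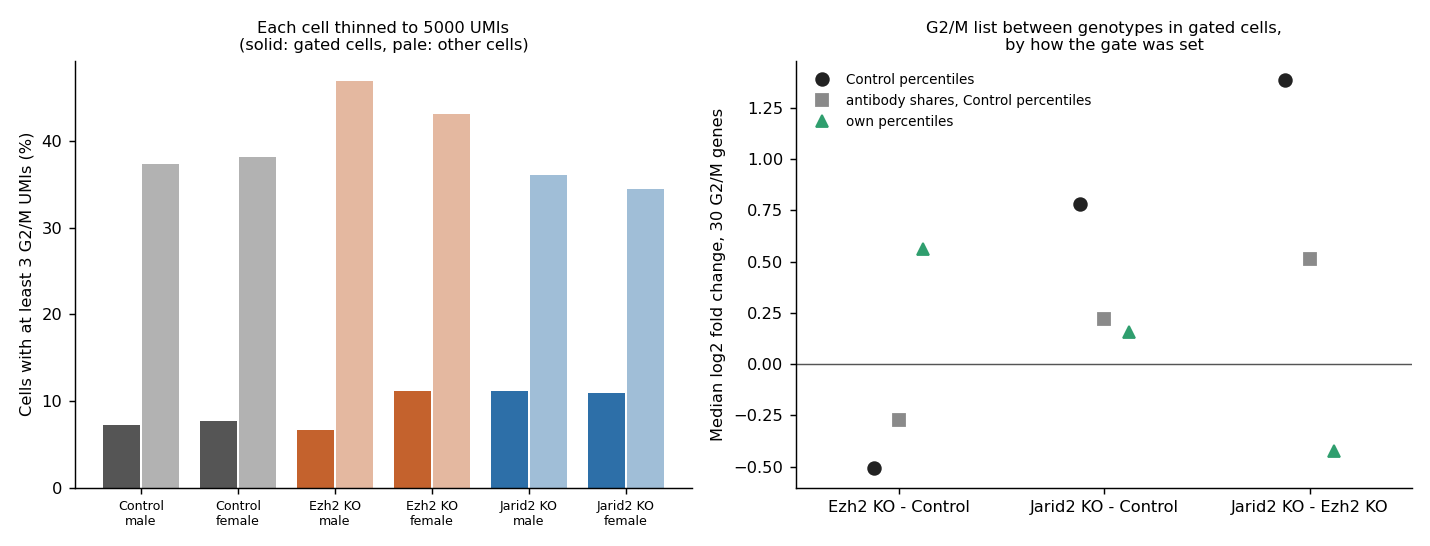
Left, share of cells with at least 3 G2/M UMIs after thinning to 5000 UMIs (y axis, percent) in gated (solid) and other (pale) cells of each library: gated cells reach 6.67% to 11.2% and other cells 34.5% to 46.9%. Right, median log2 fold change of the 30 G2/M genes between genotypes in gated cells, under Control percentiles (circles), antibody shares (squares) and each library's own percentiles (triangles): the Ezh2 KO minus Control median goes from -0.51 to 0.56 and the Jarid2 KO minus Ezh2 KO median from 1.39 to -0.42.

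Between genotypes the differences in Hlf and Mecom did not pass the test. From Control, Hlf differed by log2 0.03 and Mecom by -0.06 in Ezh2 KO (edgeR FDR 0.951 and 0.881), and by -0.03 and -0.09 in Jarid2 KO (edgeR FDR 0.929 and 0.740). Procr and Slamf1, given as values alone, differed by log2 0.10 and 0.00 in Ezh2 KO and by -0.14 and -0.11 in Jarid2 KO. Of 14 HoxA and HoxB genes and 6 PRC2 core genes, 0 passed in either knockout. Among all 12699 tested genes, only 75 passed for Ezh2 KO against Control and 207 for Jarid2 KO against Control. Counts of 0 in such short lists therefore do not set the lists apart from other genes. Of 88 developmental Polycomb target genes, 2 were abundant enough in members to be tested and 0 passed. Summed over the list, Control held 5.5 and 6.27 CPM in the other KSL cells. Those cells held 17.2 and 20.01 CPM for Ezh2 KO and 4.68 and 6.62 for Jarid2 KO. Members held 18.3 and 23.2, 7.17 and 16.8, and 12.4 and 14.9 CPM, with 57 of the 88 genes at 0. Over 20 of these genes, the Ezh2 KO effect in members minus other cells had a median of log2 -1.099. With own percentiles it was -1.004 over 17 genes, and the interaction passed for 0 genes either way. In the fit of 6 libraries with genotype and sex, 12699 genes were tested.

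Ezh2 KO members had 50 genes higher (0.394%) and 25 lower (0.197%) than Control members (edgeR FDR under 0.05). Pde1c, a calcium-dependent cyclic nucleotide phosphodiesterase, was 61.5 and 76.6 CPM in Control, 22.2 and 18.96 for Ezh2 KO and 52.7 and 65.0 for Jarid2 KO. Only the Ezh2 KO pair was low, and it overlapped neither other group (log2 -1.74 ± 0.14 SE, edgeR FDR 1.26e-09). Mid1, a microtubule-bound ubiquitin ligase, was 2.58 and 9.51 CPM in Control, 20.8 and 27.9 for Ezh2 KO and 5.13 and 7.203 for Jarid2 KO (log2 2.10 ± 0.26 SE, edgeR FDR 1.07e-05), again high in the Ezh2 KO pair alone. Both genes moved alike in the other KSL cells (-1.71 and 1.89), and with each library's own percentiles (-1.89 and 2.25). The scaffold gene Magi3 was 16.1 and 21.1, 37.6 and 32.0, and 25.3 and 26.5 CPM (log2 0.93, edgeR FDR 0.00212). The Fc receptor chain Fcer1g (0.67), Plac8 (0.93), Pdgfc (0.90) and the histone gene Hist3h2ba (1.34) were also higher, and the Rac regulator Chn2 (-0.83) and the selectin Selp (-0.80) lower. Without the Control male library Magi3, Plac8 and Selp no longer passed (edgeR FDR 0.104, 0.106 and 0.0661), and Selp also missed without the Ezh2 KO female (0.0772). Hist3h2ba missed without the Control male (0.11) or the Ezh2 KO male (0.209) in edgeR FDR, and Pdgfc without the Ezh2 KO female (0.108). With own percentiles Pdgfc had a log2 difference of 0.40 (edgeR FDR 0.498) and Hist3h2ba of 1.00 (edgeR FDR 0.0555), and both missed.

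The list counts in Ezh2 KO were small. Of 30 G2/M genes 3 were lower (Ccnb2, Tpx2 and Prc1, median -0.51), and 0 of 30 G1/S genes passed (-0.01). The G2/M count was 6 without the Jarid2 KO male, 9 without the Jarid2 KO female and 2 without the Ezh2 KO male. With own percentiles the G2/M median was 0.56 with 0 passing, so the direction depended on where the gate lay. Ccnb2 missed without the Control female (edgeR FDR 0.246), without the Ezh2 KO female (0.436) and with own percentiles (0.52). The thinned share of G2/M-positive members lay on the other side, at 8.90% ± 3.16 (SD, n = 2) in Ezh2 KO and 7.52% ± 0.324 in Control, a difference of 1.38 percentage points with overlap (exact permutation p = 1). With at least 2 UMIs the difference was 4.08 points, and with thinning to 3000 UMIs it was 1.56 points, both without overlap (exact permutation p = 0.3333, adjusted p = 0.4 over 6). Prc1, a spindle protein, was 19.1 and 26.2 CPM in Control members, 9.57 and 12.4 for Ezh2 KO and 31.3 and 34.0 for Jarid2 KO (log2 -0.98, edgeR FDR 0.00683), missed without the Control female (edgeR FDR 0.073), and had a log2 difference of 0.39 with own percentiles. Egr1, Ier2 and Zfp36 were higher of 20 immediate early genes (median 0.21). This count was 1 higher and 1 lower without the Ezh2 KO male, 1 higher without the Control male, 5 higher without the Control female, 8 higher without the Ezh2 KO female, and 0 with own percentiles. Egr1 missed without the Ezh2 KO male (edgeR FDR 0.403), Ier2 without the Control male (0.557) and Zfp36 without either male (0.303 and 0.182). Of 28 interferon-stimulated genes 2 were higher, Ly6a among them, with 0 higher without the Control male or the Ezh2 KO female, 3 without the Control female and 4 without the Jarid2 KO female. Ly6a, which encodes Sca1, was 102 and 98.8, 141 and 130, and 99.6 and 69.5 CPM (log2 0.48, edgeR FDR 0.0094), high in the Ezh2 KO pair. It missed without the Control male (edgeR FDR 0.363), without the Ezh2 KO female (0.0953) and with own percentiles (0.228). The B-cell genes Ebf1, Vpreb3 and Igll1 also passed, from low levels: Ebf1 was 5.37 and 6.08, 18.8 and 15.5, and 2.18 and 2.16 CPM in members, while the other cells of the Ezh2 KO libraries held 1195 and 610 CPM against 468 and 124 in Control. Ebf1 passed in each fit with 1 library left out and with own percentiles. Vpreb3 missed without any 1 of the Control and Ezh2 KO libraries (edgeR FDR 0.108 to 0.33), and Igll1 without the Control male or either Ezh2 KO library (0.0991 to 0.512) and with own percentiles (0.0852). The part of RNA from those cells was not tested. Without the sex term 0 genes were called higher in Ezh2 KO than in Control members, so Ebf1 and Mid1 lost their calls there.

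Jarid2 KO members had 124 genes higher (0.976%) and 83 lower (0.654%) than Control members. Cenpf, a kinetochore protein, was 9.46 and 17.7 CPM in Control, 6.49 and 10.7 for Ezh2 KO and 24.9 and 35.7 for Jarid2 KO (log2 1.20 ± 0.16 SE, edgeR FDR 3.89e-05). The Jarid2 KO pair was the highest and did not overlap Control. With own percentiles Cenpf was at log2 0.51 and missed (edgeR FDR 0.81). Of 30 G2/M genes 17 were higher and 0 lower (median 0.78), and of 30 G1/S genes 10 were higher (0.45), with Mki67 at log2 0.98 (0.11 with own percentiles, edgeR FDR 0.962). The G2/M count was 5 without the Jarid2 KO male, 9 without the Control male, 11 without the Control female, 0 with own percentiles (median 0.16) and 0 with antibody counts scaled to each cell's antibody total (0.22). The G1/S count was 0 without the Jarid2 KO male, 1 without the Control male and 5 without the Jarid2 KO female. The thinned share of G2/M-positive members was 11.1% ± 0.181 (SD, n = 2) in Jarid2 KO and 7.52% ± 0.324 in Control, a difference of 3.54 percentage points without overlap (exact permutation p = 0.3333, adjusted p = 0.8 over 6). Members of this genotype also carried more CD117, as given above, and more UMIs (median 9866 against 8735 over library medians), and the part of either in the cycle difference was not tested. The sterol synthesis gene Hmgcs1 was 22.8 and 25.1, 53.3 and 30.3, and 40.1 and 58.3 CPM (log2 1.04, edgeR FDR 0.00067), and missed without the Jarid2 KO female (edgeR FDR 0.0679) and with own percentiles (1.06, edgeR FDR 0.224).

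Of 20 immediate early genes 3 were lower and 0 higher (median -0.23), where 0.654% of all genes were lower. The count was 5 without the Ezh2 KO male, 6 without the Ezh2 KO female and 0 with own percentiles. Fosb, an AP-1 subunit, was 157 and 160 CPM in Control, 170 and 166 for Ezh2 KO and 91.2 and 88.4 for Jarid2 KO (log2 -0.80 ± 0.08 SE, edgeR FDR 1e-07), low in the Jarid2 KO pair alone. Fos was 91.6 and 76.6, 107 and 63.0, and 52.2 and 42.0 CPM (log2 -0.82, edgeR FDR 1.73e-05), and Zfp36 was also lower (-0.45), but missed without the Control female (edgeR FDR 0.446), without the Jarid2 KO male (0.271) and with own percentiles (0.622). Fosb and Fos passed in each fit with 1 library left out, and missed with own percentiles (edgeR FDR 0.106 and 0.0626). The interferon-induced gene Ifit1 was 14.0 and 23.8, 19.5 and 24.4, and 10.8 and 5.58 CPM (log2 -1.08, edgeR FDR 0.0118), and missed without the Control female (0.349) or the Jarid2 KO female (0.665), and with own percentiles (-0.81, edgeR FDR 0.634). The homeobox gene Meis2 was 17.0 and 19.8, 28.7 and 11.99, and 6.15 and 9.36 CPM (log2 -1.26), and missed without the Jarid2 KO male (edgeR FDR 0.571) and with own percentiles (-0.81, edgeR FDR 0.432). Sorbs2, a cytoskeletal adaptor, fell by 1.09 on the log2 scale and passed in each fit with 1 library left out, and missed with own percentiles (-0.88, edgeR FDR 0.207). Of 13 imprinted growth genes 3 were higher (Dlk1, Meg3 and Rian) and 0 lower (median 0.06), and of 8 fetal program genes 2 were higher (Dlk1 and Mycn) and 0 lower (0.12), where 0.976% of all genes were higher. Without the Control male each list had 1 higher, and with own percentiles they had 2 and 1. The fetal count was also 1 without the Control female or the Jarid2 KO female. Dlk1 was 3.87 and 3.43, 7.17 and 2.18, and 14.6 and 11.0 CPM (log2 1.83), with the Jarid2 KO pair highest, and missed without the Control male (edgeR FDR 0.0618). Meg3 was 54.6 and 64.5, 84.7 and 70.4, and 85.8 and 102 CPM (log2 0.67), and passed in each fit with 1 library left out and with own percentiles. Mycn missed without the Control female (edgeR FDR 0.547), without the Jarid2 KO female (0.895) and with own percentiles (0.122). Rian missed without the Control male or either Jarid2 KO library (edgeR FDR 0.105 to 0.578) and with own percentiles (0.214).

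**Figure D5:**
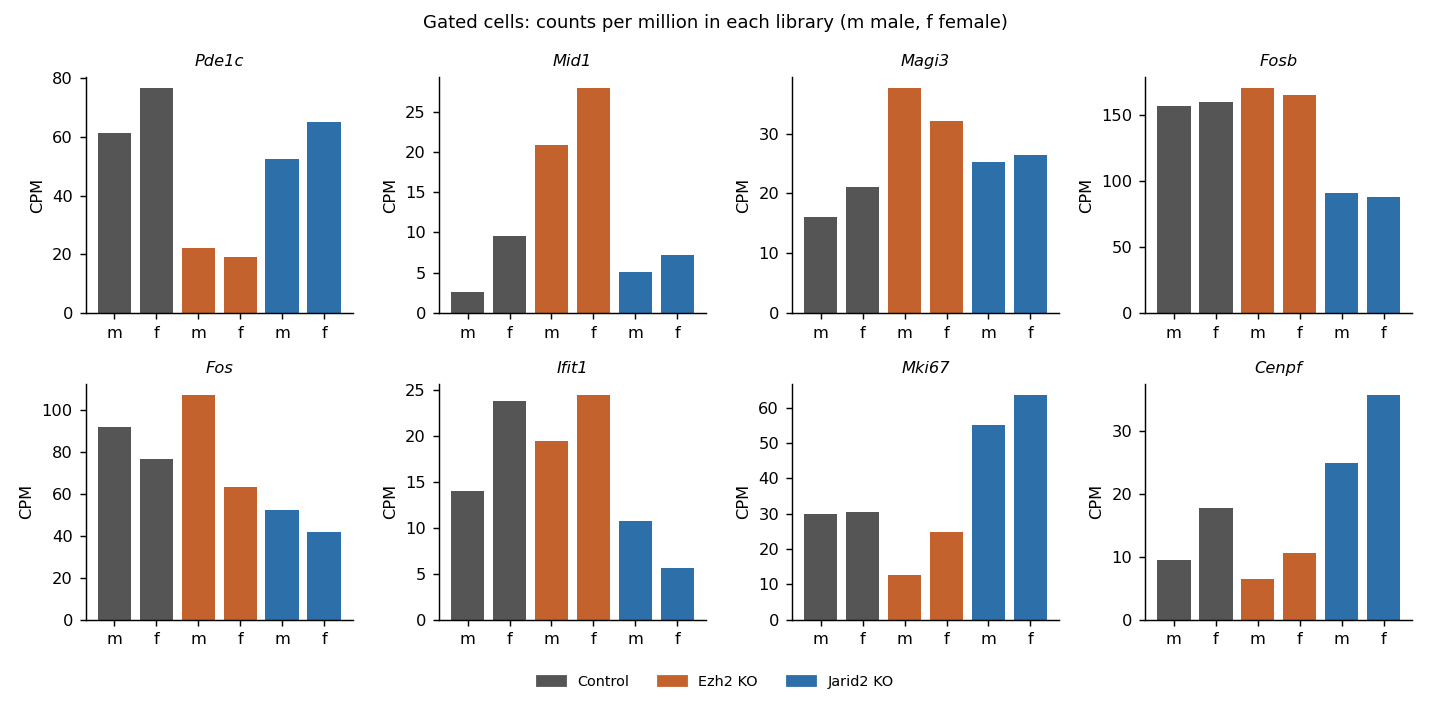
CPM in gated cells of each library (y axes; m male, f female; 1 bar per library) for 8 genes. The Ezh2 KO pair stands apart for Pde1c (18.96 and 22.2 CPM) and Mid1 (20.8 and 27.9 CPM), and the Jarid2 KO pair is lowest for Fosb (88.4 and 91.2 CPM) and highest for Mki67 and Cenpf.

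Between the knockouts, 144 genes were higher in Jarid2 KO members (1.13%) and 131 lower (1.03%). Of 30 G2/M genes 25 were higher (median 1.39), and Mki67 had a log2 difference of 1.60 (edgeR FDR 1.29e-08). With own percentiles 0 passed, the median was -0.42 and Mki67 was at -0.63, so the direction reversed. Of 20 immediate early genes 8 were lower in Jarid2 KO (median -0.40), 5 without the Ezh2 KO male, 5 without the Jarid2 KO male and 12 without the Ezh2 KO female, and 3 were lower with own percentiles. Zfp36 was 90.5 and 78.7 CPM in Control, 166 and 93.5 for Ezh2 KO and 70.9 and 51.3 for Jarid2 KO (log2 -1.07, edgeR FDR 2e-08). Of 28 interferon-stimulated genes 8 were lower, Isg15, Rsad2 and Ifit1 among them, with 5 lower without the Ezh2 KO male, 2 without the Jarid2 KO female and 0 with own percentiles. For Ifit1 the call was lost without the Jarid2 KO female (log2 -0.74, edgeR FDR 0.185) and with own percentiles (-0.94, edgeR FDR 0.202). Pde1c (log2 1.53) and Mid1 (-1.97) passed here too, also with own percentiles. This comparison and the 2 above share libraries and are not independent.

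The counts between genotypes moved with single libraries and with the gate. Ezh2 KO against Control gave 75 genes in all, and 141, 154, 124 and 165 without the Control female, the Ezh2 KO male, the Jarid2 KO male and the Jarid2 KO female. Jarid2 KO against Control gave 207, and 126, 402, 372 and 115 without the Control male, the Ezh2 KO male, the Ezh2 KO female and the Jarid2 KO male. Jarid2 KO against Ezh2 KO gave 275, and 459 without the Control female. With own percentiles 99, 9 and 131 genes passed, of which 34, 9 and 45 were in the 75, 207 and 275. For these contrasts DESeq2 called 2, 13 and 47 genes.

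Whether a knockout acted on members as on the other KSL cells was tested as an interaction over 18369 genes. The Ezh2 KO effect differed for 184 genes (1%), the Jarid2 KO effect for 186 (1.01%) and the Jarid2 KO minus Ezh2 KO effect for 780 (4.25%) at an edgeR FDR under 0.05. Without the Ezh2 KO female the first count was 278. The second was 120 without the Jarid2 KO male and 104 without the Jarid2 KO female. The third was 485 without the Ezh2 KO male, 488 without the Jarid2 KO male and 513 without the Jarid2 KO female. With own percentiles these were 179, 5 and 273, and the directions moved. The Ezh2 KO effect was higher in members for 48 genes and lower for 136 with Control percentiles, and 91 and 88 with own percentiles. For Jarid2 KO minus Ezh2 KO the counts were 569 and 211, and 140 and 133. Hmga2, a fetal-type chromatin protein, had an Ezh2 KO effect of log2 0.31 in members, where it was 53.5 and 58.1 CPM in Control and 70.7 and 65.2 in Ezh2 KO. In the other cells its effect was 1.48, from 36.4 and 43.7 to 104 and 113 CPM (interaction edgeR FDR 1.2e-10). The syndecan Sdc4 went likewise, with -0.08 in members and 1.68 in the other cells (1.7e-09 in edgeR FDR). Vwf fell in the other cells of Ezh2 KO (-1.01) and did not pass in members (-0.24). With own percentiles the interaction held for Hmga2 (-1.41) and Sdc4 (-1.81), and missed in edgeR for Vwf (0.49). In Jarid2 KO the lower interaction genes included Gata3, at -0.38 in members and 0.82 outside, and Mycn, at 0.37 and 0.86 (interaction edgeR FDR 4.9e-06 and 0.011). With own percentiles Gata3 held (edgeR FDR 0.0028) and Mycn missed (0.971). Among the G2/M genes the interaction passed for 18 of 30 in Ezh2 KO, all with a lower effect in members, and for 18 of 30 in Jarid2 KO, all with a higher effect in members. With own percentiles 0 of 30 passed in either knockout, with median differences of 0.15 and 0.17.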

How the data were processed

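The authors deposited raw UMI counts per gene and antibody barcode, 10x matrices that name Cell Ranger 7.2.0 per the file headers. The submitters' processing notes name Cell Ranger 3.1.0, Seurat 3.0, Partek and mm10. Each of the 6 matrices listed 32285 genes (78 sharing a symbol) and 6 antibody features. The transplant and CUT&Tag libraries of the series were not analysed here. The members and gene lists were chosen with earlier results of these data known. Gated and comparison cells were summed per library, and the sums tested with edgeR 4.0.16 (quasi-likelihood, TMM, filterByExpr, Benjamini-Hochberg FDR under 0.05), using genotype and sex between genotypes and library as a block within libraries. Each SE beside an edgeR log2 difference was the absolute difference divided by the square root of its quasi-likelihood F statistic. It is not the spread of the libraries' own differences. DESeq2 1.42.0 was an alternative. Male and female numbers pair libraries across genotypes through sex. Permutation tests over libraries were exact (scipy 1.17.1). Doublets were scored with scanpy 1.11.5 and, since the automatic threshold marked 0 to 2 cells in 5 libraries, taken as the top-scoring 0.8% per 1000 barcodes. The genotype, gated-against-other and interaction tests across genes were run on simulated counts. Those counts had a single fixed dispersion and no sex effect, a simpler setting than these data. Named genes were up to 12 per direction (6 in the comparator and antibody comparisons) with the largest change, FDR under 0.05, a mean of at least 10 CPM and non-overlapping groups or the same sign in 6 libraries, leaving out unnamed and sex-linked RNA genes, plus all listed genes. Gene positions come from RefSeq on GRCm38.p6. A few listed genes are not reported here.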

Additional observations from a re-analysis of the deposited data

Results flagged for a closer look

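The Ezh2 KO effect differed between gated and other KSL cells for 184 genes and the Jarid2 KO effect for 186 genes by the interaction test of edgeR. Among the genes picked by the naming rule, those with a larger Ezh2 KO effect in members were Igha (difference of the log2 effects 5.00), Jchain (5.24), Igkc (4.65), Wfdc17 (1.04), Plac8 (0.60) and Fcer1g (0.56). In the Ezh2 KO female 4 members held at least 10 Jchain UMIs. Without that library the effects in members of Jchain (log2 0.95) and Igkc (0.71) missed (edgeR FDR 0.497 and 0.0809), and that of Igha was 2.16 and still passed in edgeR. Igha had 4321 UMIs in 129 members of the Ezh2 KO female, 38 UMIs in 37 members of the Ezh2 KO male, and 7 and 14 UMIs in the Control libraries. In members Wfdc17 fell short without the Ezh2 KO female (log2 0.39, edgeR FDR 0.826), where 1 cell held 28.6% of its UMIs, and also without the Control female (0.182) and with own percentiles (0.275). Those with a lower effect in members were Hist1h2ab (-1.59), Tpx2 (-1.44), Prc1 (-1.42), Hist1h2ae (-0.84) and Hist1h1b (-1.22), each with a negative log2 effect in members and a positive one in the other cells. Without the Control male the members' effects of Hist1h2ae (log2 -0.07), Hist1h2ab (-0.33), Hist1h1b (-0.42) and Tpx2 (-0.96) missed (edgeR FDR 0.973, 0.837, 0.165 and 0.196). Hist1h2ae also missed without the Ezh2 KO male (0.274), Tpx2 without the Ezh2 KO male (0.112) or female (0.0592), and Prc1 without the Control female (0.073). With own percentiles all 5 effects in members were positive.

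In Jarid2 KO the effect was larger in members for Hist1h2bj (1.01), Hist1h2an (0.99), Cenpf (1.14), Hist1h3f (0.94), Knl1 (1.11), Hist1h2bn (0.76), Hist1h3c (0.97), Kif15 (1.05), Rpgrip1l (0.87), Chek1 (0.99) and Kif11 (0.89). It was lower for Ifit1 (-0.99). With own percentiles the Jarid2 KO interaction was called for 5 genes, and the effects in members of all 12 of these genes missed (edgeR FDR 0.108 to 0.96). With 1 library left out, Knl1 missed without the Control male (edgeR FDR 0.104), Hist1h2bn, Rpgrip1l and Chek1 without the Control male or the Jarid2 KO male (0.0541 to 0.201), Kif11 without the Jarid2 KO male (0.0504) and Kif15 without the Jarid2 KO female (0.0956). Ifit1 missed without the Control female (0.349) or the Jarid2 KO female (0.665).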

How the results depend on the processing

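Differences between members and other cells held in number with each library left out (8957 to 9289 genes). The genotype results depended most on the gate and the model. Gene counts (Ezh2 KO against Control, Jarid2 KO against Control, Jarid2 KO against Ezh2 KO; 75, 207 and 275 as reported) were 2, 13 and 47 with DESeq2, 182, 313 and 434 with no count filter, 3, 23 and 62 with antibody shares, 7, 3 and 23 with the 90th and 10th percentiles, and 99, 9 and 131 with own percentiles. Without the replicate block (no sex term, the pairing of males and females) 1, 2 and 52 genes passed. Without the CD201 condition the first 2 counts were 128 and 68, and without the 10% of cells with fewest UMIs the second was 124. DESeq2's gene-wise dispersions were at their floor for 84.2% of genes, and the cause of these changes was not tested. With 1 library left out the counts ran from 66 to 165, 115 to 402 and 187 to 459. Interaction counts ran from 139 to 278, 104 to 264 and 485 to 980, and were 5 and 273 for Jarid2 KO against Control and against Ezh2 KO with own percentiles. A set of alternatives chosen after seeing the data left out cells with 10 Jchain or Car1 UMIs and gave 69, 226 and 254. Leaving the transcripts of gated proteins out of the gene lists, and taking the interaction by gene list with own percentiles, were also chosen after seeing the data.

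With own percentiles the Ezh2 KO minus Control sign turned for Hist1h2ab (0.42), Tpx2 (0.55), Prc1 (0.39), Hist1h2ae (0.12), Hist1h1b (0.81), Ezh2 (0.0663), Procr (-0.17), Hlf (-0.0661) and the gated share (0.0893 points), Jarid2 KO minus Control turned for Hlf (0.0600), and Jarid2 KO minus Ezh2 KO for Car1 (-1.70), Hist1h2ab (-0.29), Hist1h2an (-0.24), Tpx2 (-0.23), Cenpf (-0.32), Knl1 (-0.59), Ube2c (-0.80), Mki67 (-0.63), Nusap1 (-0.39) and Prc1 (-0.28). With the strict percentiles Hist1h2ab (0.42), Hist1h1b (0.70) and Slamf1 (0.28) turned in Ezh2 KO, Hlf (0.0488), Procr (0.00918) and Slamf1 (0.30) in Jarid2 KO, and Jarid2 in members against other cells (-0.0717, and -0.0334 with no count filter). Without CD201, Slamf1 (0.10) turned in Ezh2 KO and Hlf (0.0909) and Procr (0.0167) in Jarid2 KO. The Slamf1 difference in Ezh2 KO, given with no test, was also positive with antibody shares (0.18), DESeq2 (0.00907) and no replicate block (0.00821). With a minimum of 2 G2/M UMIs the Jarid2 KO minus Ezh2 KO share turned to -1.38 points, and as mean log2 CD135 in Ezh2 KO (-0.00135) and the Sca1 tag between the knockouts (0.00422) turned.

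With 1 library left out, members minus other cells ran from 44.1 to 54.1 (CD117), -30.0 to -25.4 (CD135) and 360 to 371.5 UMIs (Sca1 tag), and from -31.5 to -28.2 (G2/M) and -20.8 to -18.1 points (G1/S), where 5 pairs cannot go below an exact p of 0.0625. Between genotypes such fits gave, for Ezh2 KO minus Control, Jarid2 -0.216 to 0.0191, Slamf1 -0.164 to 0.174, Hlf -0.0221 to 0.0860, Mecom -0.173 to 0.0490 and the G2/M share -0.854 to 3.61 points. For Jarid2 KO minus Control they gave Slamf1 -0.284 to 0.0547, Hlf -0.0860 to 0.0224 and the Sca1 tag -45.0 to 13.0 UMIs. For Jarid2 KO minus Ezh2 KO they gave the G2/M share -0.0741 to 4.39 points, the G1/S share -1.07 to 6.80 points and the Sca1 tag -37.75 to 20.25 UMIs. Jarid2 in members minus other cells ran from -0.0184 to 0.0678. None of these sign changes involved a value past its test.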

Other observations

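A few cells inside the gate carried transcripts of committed cells. In the Ezh2 KO female, Igkc was 4970 CPM, Jchain 933 CPM and Igha 942 CPM, against 17.6 to 54.2, 4.49 to 9.62 and 1.505 to 13.0 CPM in the other 5 libraries. There 4 members held at least 10 Jchain UMIs, and the top cell held 7432 Igkc UMIs of 17019. Igkc, Igha and Jchain encode antibody chains and the joining chain that plasma cells secrete. Car1, an erythroid carbonic anhydrase, was 51.3 CPM in the Control female and 55.3 CPM in the Jarid2 KO female against 0.645 to 7.95 CPM elsewhere, and 1 cell gave 92.3% and 81.1% of those counts. These cells held 47280 and 47848 UMIs, where the members' medians were 8434 and 10104. Their CD150 counts, 47 and 41, lay near the threshold of 38. Of the genes called between genotypes, 7 of 75, 10 of 207 and 24 of 275 drew over 20% of the counts in their highest library from 1 cell.

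Shisa9, a gene of receptor trafficking, was higher in the members of each female library. It was 97.5, 67.6 and 36.6 CPM in the Control, Ezh2 KO and Jarid2 KO females and 11.6, 20.5 and 11.7 CPM in the males. It was chosen after its values were seen, and sex was not tested here.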
